A study of Mus musculus with 12 samples.

Results

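Serotonin, dopamine and noradrenaline neurons were followed through 10 genes that mark them or that they share, out of 52459 genes in the count tables of *Tpp1*-/- mouse brain. The members were *Slc6a4*, *Tph2* and *Fev* for serotonin neurons, *Th* and *Slc6a3* for dopamine neurons, *Dbh* and *Slc6a2* for noradrenaline neurons, and *Slc18a2*, *Ddc* and *Maob*, which the 3 transmitter systems have in common. They were picked by symbol, with earlier results of these libraries known, for how their levels differed between *Tpp1*-/- and control mice in each area. That comparison is therefore given for them as a description, with no test. The study sequenced poly(A) RNA of 2 brain areas, cerebellum (Cb) and forebrain/midbrain (F/M), from male mice of 4 months. One genotype was *Tpp1*-/- (T), in which the gene for the lysosomal enzyme tripeptidyl peptidase 1 is disrupted by gene targeting in every cell, a model of the classical late infantile form of neuronal ceroid lipofuscinosis, and the other was wild-type siblings (N) from the same heterozygous crosses. Each of the 4 groups (Cb-N, Cb-T, F/M-N and F/M-T) had 3 libraries. The study's methods name 3 *Tpp1*-/- and wild-type mice as the source of the RNA of both areas. The labels do not say which libraries came from which mice, so the p-values below measure only the spread between these libraries, which may be technical.

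Total counts ranged from 21428379 to 24458189 per library, and levels are given as CPM, counts scaled to library size, after TMM normalization for library composition. At this depth 3 counts, the smallest level taken as detectable, were 0.121 to 0.139 CPM, a floor that covers counting error only. *Tpp1* itself, the check of the labels, lay between 87.8 and 114.2 CPM in the 6 N libraries and between 21.8 and 31.1 CPM in the 6 T libraries, and its log2 fold change (T over N) was -1.91 ± 0.040 (SE) in Cb and -1.94 ± 0.049 in F/M. Marker genes of the labelled areas were where the labels put them, with summed levels of 5 cerebellar genes between 3390 and 3890 CPM in Cb and below 5 CPM in F/M, and of 5 cortical genes between 276 and 321 CPM in F/M and below 10 CPM in Cb. Pituitary homeobox 3 (*Pitx3*), a defining gene of midbrain dopamine neurons, had no count in Cb and no more than 0.135 CPM in any F/M library.

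Most of these neurons have their cell bodies in small nuclei of the brainstem and midbrain, and send axons through much of the rest of the brain. Serotonin neurons lie in the raphe nuclei, which run along the midline from the midbrain to the medulla. Noradrenaline neurons form the locus coeruleus in the pons, next to the cerebellar stalks, and smaller groups further back, while the large dopamine groups lie in the ventral midbrain and others in the hypothalamus and the olfactory bulb. Each neuron makes its transmitter with a rate-limiting hydroxylase, loads it into vesicles and takes it back from the synapse with a transporter of its own. Tryptophan hydroxylase 2 (*Tph2*) starts serotonin synthesis, tyrosine hydroxylase (*Th*) starts that of dopamine and noradrenaline, dopamine beta-hydroxylase (*Dbh*) turns dopamine into noradrenaline, and *Slc6a4*, *Slc6a3* and *Slc6a2* encode the reuptake transporters of serotonin, dopamine and noradrenaline. *Fev* (also called Pet-1) is an ETS transcription factor of serotonin neurons. Aromatic L-amino acid decarboxylase (*Ddc*), the vesicular monoamine transporter (*Slc18a2*) and monoamine oxidase B (*Maob*), which breaks monoamines down and is also found in astrocytes, serve more than one of these systems.

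The stretch just before the start of the 2 serotonin genes with the most counts is shown beside that of the dopamine transporter, because the serotonin transporter gene had the largest fold change of the members in F/M and the dopamine transporter gene one close to none. Each line gives 250 bases of RefSeq's GRCm38.p6 sequence, 5′ to 3′ on the strand of the gene, ending at the base before the RefSeq start. Capitals mark GGAA, the core that ETS factors such as Fev bind, read on either strand (TTCC where it lies on the other strand). The windows are chr11:76998347-76998596 on the plus strand for *Slc6a4*, chr10:115185023-115185272 on the minus strand for *Tph2*, and chr13:73536497-73536746 on the plus strand for *Slc6a3*.
Slc6a4: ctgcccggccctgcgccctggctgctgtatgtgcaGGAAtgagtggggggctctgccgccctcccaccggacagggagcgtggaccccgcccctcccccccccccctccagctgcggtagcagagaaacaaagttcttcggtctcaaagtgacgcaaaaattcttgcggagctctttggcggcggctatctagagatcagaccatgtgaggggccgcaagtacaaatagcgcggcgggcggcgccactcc
Tph2: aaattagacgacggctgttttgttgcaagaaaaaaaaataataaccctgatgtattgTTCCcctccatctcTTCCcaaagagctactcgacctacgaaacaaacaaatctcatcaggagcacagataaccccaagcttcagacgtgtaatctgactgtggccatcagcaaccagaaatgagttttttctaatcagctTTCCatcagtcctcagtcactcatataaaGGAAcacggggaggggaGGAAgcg
Slc6a3: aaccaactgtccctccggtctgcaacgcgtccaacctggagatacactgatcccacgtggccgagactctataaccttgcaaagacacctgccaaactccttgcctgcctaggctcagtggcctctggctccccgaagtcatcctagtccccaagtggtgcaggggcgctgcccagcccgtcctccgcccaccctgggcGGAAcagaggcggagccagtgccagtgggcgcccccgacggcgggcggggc
The core was found 5 times before *Tph2* and 1 time each before *Slc6a4* and *Slc6a3*. It is a short word, present in 93.4% of 32817 promoter windows of this length. Windows were at hand for 8 of the 10 members, 9 windows in all, and the longer ETS word CCGGAA, which 12% of all windows hold, was in none of the 9. The GATA word AGATAA, held by 9.99% of all windows, was in 3 of the 9, those of *Tph2*, *Fev* and *Slc18a2*. The cyclic AMP response element TGACGTCA, held by 1.55% of all windows, was in that of *Th*, 45 bases before the start. These matches describe letters and not bound sites.

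The wild-type areas were compared first, since the choice of members did not use that contrast. Dopamine transporter RNA was found mostly in F/M-N and noradrenaline transporter RNA mostly in Cb-N, while *Slc6a4* and *Fev* were close to the floor in both. Of 8 members with enough counts for edgeR's quasi-likelihood test, 5 differed between F/M-N and Cb-N (FDR below 0.1 and at least 1.5-fold), where 42% of all 16725 tested genes did (22.8% higher and 19.2% lower in F/M-N). The level was higher in F/M-N for 3 members and lower for 2. Of the 5, *Slc6a3* met the count minimum in all libraries of F/M-N only, and *Slc6a2* and *Dbh* in all libraries of Cb-N only, so the filter admitted these 3 through the area in which they are high. With no filter on counts, 4 of 10 members passed, 3 higher and 1 lower in F/M-N, and *Dbh* did not. *Slc6a3* (chr 13, 73536747 to 73578672) had 14.5, 15.4 and 15.8 CPM in F/M-N and 0, 0.229 and 0 CPM in Cb-N, where all of its 5 counts were in library 2. Its ratio of F/M-N over Cb-N was 201 (95% exact interval 85.7 to 619, counting error only). The fitted log2 difference was 7.55, and it was 6.98 to 11.4 when 1 library was left out, the highest without Cb-N library 2, which leaves Cb-N with no count. *Slc18a2* was higher in F/M-N by 3.63 ± 0.15 on the log2 scale (SE, adjusted p = 5.3e-15) and *Ddc* by 1.65 ± 0.099 (adjusted p = 3.3e-12). *Slc6a2* (chr 8, 92960079 to 93001667) was lower there, with 1 count in the 3 F/M-N libraries together against 67 in Cb-N, a ratio of 0.0143 (95% exact interval 0.000356 to 0.0823) and an adjusted p of 1.1e-16 in edgeR with no filter. *Dbh* had a log2 difference of -0.72 (edgeR adjusted p = 0.063), a call that was lost with no filter on counts (edgeR adjusted p = 0.12), without Cb-N library 2 or 3 or F/M-N library 1 or 2 (adjusted p = 0.14 to 0.17) and in DESeq2 (adjusted p = 0.19). *Th* and *Maob* differed by less than 1.5-fold, with log2 differences of 0.43 (edgeR adjusted p = 3.3e-05) and 0.44 (edgeR adjusted p = 2.1e-07). *Tph2* did not pass the test (0.25 ± 0.26, adjusted p = 0.39 in edgeR), and with 83 and 67 counts its ratio of F/M-N over Cb-N had an interval from 0.849 to 1.66. *Slc6a4* and *Fev* had too few counts in N to be tested.

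**Figure D1:**
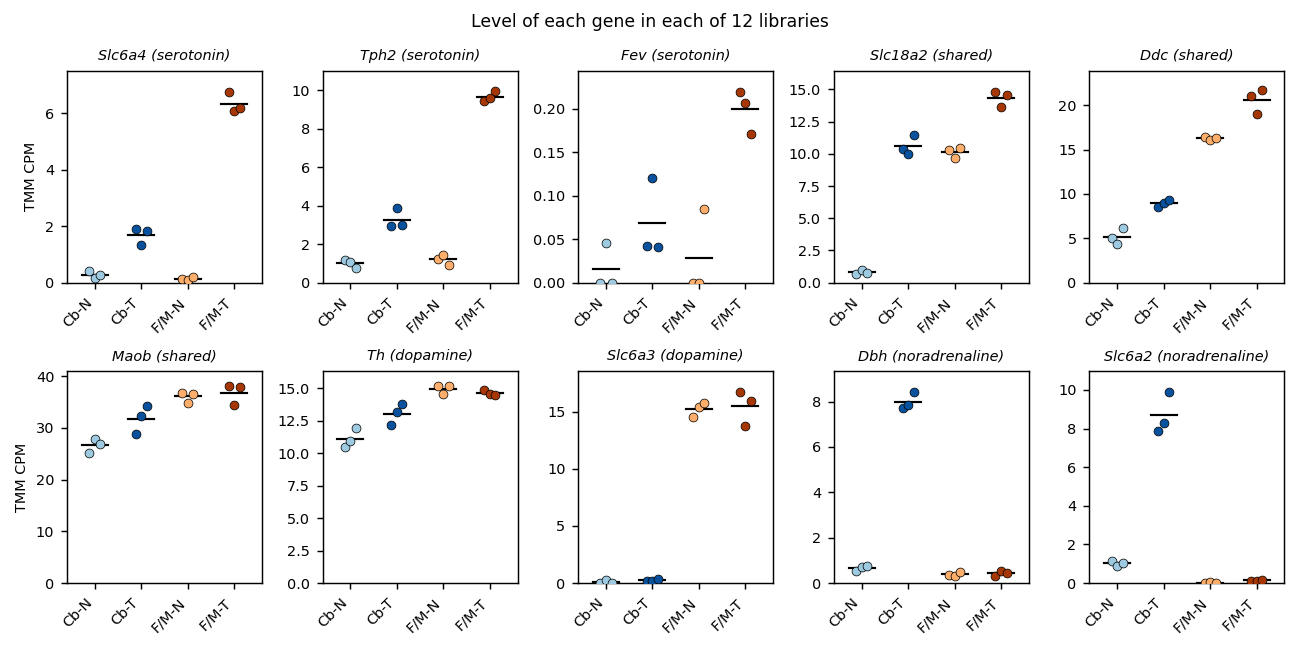
TMM-normalized CPM of each of the 10 genes (one panel each, linear axis from 0) in the 3 libraries of Cb-N, Cb-T, F/M-N and F/M-T; points are libraries and short lines are group means. The serotonin genes are highest in F/M-T, with Slc6a4 at 6.09 to 6.75 CPM, the noradrenaline genes are high in Cb-T alone, with Dbh at 7.72 to 8.42 CPM, and Slc6a3 is high in both F/M groups.

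Serotonin neuron genes were higher in T than in N in both areas, and by more in F/M. In F/M the serotonin transporter gene *Slc6a4* (chr 11, 76998603 to 77032340) had 0.130, 0.0901 and 0.212 CPM in N, which are 3, 2 and 5 counts, and 6.75, 6.09 and 6.17 CPM in T, which are 154, 147 and 144 counts. In N, libraries 1 and 2 were at or under the floor and every T library stood far above all N libraries. The fitted log2 fold change was 5.43 ± 0.24, and the ratio of the summed counts after TMM scaling was 43.6 (95% exact interval 23.5 to 91.5, counting error only). In Cb the same gene had 0.400, 0.184 and 0.279 CPM in N and 1.90, 1.33 and 1.82 CPM in T, a ratio of 5.82 (3.57 to 10) with no overlap between the groups. The order of its levels was thus F/M-T, Cb-T, Cb-N and F/M-N, in which the libraries of the last pair overlapped (0.287 ± 0.108 and 0.144 ± 0.062 CPM, SD, n = 3).

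*Tph2* (chr 10, 115078641 to 115185022), the neuronal enzyme that starts serotonin synthesis, followed the same order at the top. Its levels in F/M were 1.259, 1.44 and 0.932 CPM in N and 9.42, 9.61 and 9.94 CPM in T, with a log2 fold change of 3.03 ± 0.14. In Cb they were 1.199, 1.10 and 0.743 CPM in N and 2.95, 3.87 and 3.03 CPM in T, with a log2 fold change of 1.70 ± 0.20. The groups did not overlap in either area. *Fev*, the transcription factor of these neurons, had 5, 5 and 4 counts in F/M-T against 0, 0 and 2 in F/M-N, a ratio of 6.85 whose interval ran from 1.57 to 62.1. In Cb it had 5 counts in T and 1 in N, and the groups overlapped. Fev was below the count limit of the fit in both areas. In whole tissue, fewer or more cells of a type and less or more RNA per cell cannot be told apart.

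Noradrenaline neuron genes were higher in T in Cb and low in both F/M groups. *Dbh* (chr 2, 27165233 to 27183200) had 0.533, 0.688 and 0.743 CPM in Cb-N and 7.72, 7.86 and 8.42 CPM in Cb-T, and its fitted log2 difference was 3.62 ± 0.17. *Slc6a2*, the noradrenaline transporter gene, had 1.15, 0.872 and 1.02 CPM in Cb-N and 7.89, 8.30 and 9.87 CPM in Cb-T, with 3.10 ± 0.16 for the fitted log2 value. All 3 Cb-T libraries had both genes several-fold above every Cb-N library. In F/M *Dbh* had 8, 7 and 12 counts in N and 7, 13 and 10 in T, a ratio of 1.09 (0.625 to 1.90), and the groups overlapped. *Slc6a2* had 0, 1 and 0 counts in F/M-N and 3, 3 and 4 in F/M-T, a ratio of 9.79 with an interval from 1.39 to 425.

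Dopamine neuron genes differed little between T and N in F/M. *Slc6a3* had 14.5, 15.4 and 15.8 CPM in F/M-N and 16.7, 13.8 and 16.0 CPM in F/M-T, with overlapping groups and a ratio of 1.01 (0.931 to 1.11). In Cb it had 0, 5 and 0 counts in N and 4, 5 and 8 in T, a ratio of 3.08 (1.09 to 10.7) with overlapping libraries. *Th* (chr 7, 142892752 to 142931128) had 15.2, 14.6 and 15.2 CPM in F/M-N and 14.9, 14.6 and 14.5 CPM in F/M-T, a ratio of 0.977 (0.896 to 1.07). In Cb its levels were 10.5, 10.96 and 11.97 CPM in N and 12.15, 13.2 and 13.8 CPM in T, a log2 fold change of 0.24 ± 0.081, and the lowest T library lay just above the highest N library. *Th* lies on chromosome 7, as does *Tpp1* (105744811 to 105752235). Other genes named below lie there too, among them *Phox2a* (101818313 to 101822726) and *Omp* (98143359 to 98145502), which are nearer to *Tpp1*, and *Slc17a6*, *Slc6a5* and *Tph1*. A part of this position in their levels was not tested.

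Of the genes that the 3 systems share, the vesicular transporter differed most, and in Cb. *Slc18a2* (chr 19, 59260896 to 59296012), which loads all monoamines into vesicles, had 0.710, 0.963 and 0.789 CPM in Cb-N and 10.4, 9.99 and 11.5 CPM in Cb-T, which gave a log2 fold change of 3.70 ± 0.15. In F/M it was already at 10.3, 9.69 and 10.5 CPM in N and reached 14.8, 13.6 and 14.5 CPM in T, a log2 fold change of 0.53 ± 0.076. Its exons overlap those of *Gm29261* on the other strand, and the strand setting of the counting is not given in the sources used here, so reads of the pair may not be told apart. *Ddc* was higher in T by 0.80 ± 0.11 in Cb and by 0.37 ± 0.067 in F/M (log2), with no overlap in either area. *Maob* differed by 0.27 ± 0.057 in Cb, where the lowest T library (28.8 CPM) lay above the highest N library (27.9 CPM), and by 0.06 in F/M, where the groups overlapped.

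All 3 T libraries lay above all 3 N libraries for 8 of the 10 members in Cb, the 8 with enough counts, as for 27.7% of the 16382 tested genes. In F/M they did so for 6 of 10, of which 4 were among the 8 with enough counts, as for 13.3% of the 16665 tested genes. In no case did the T libraries lie below all N libraries. Of the members with enough counts, 6 of 8 in Cb and 2 of 8 in F/M had a fitted value at least 1.5-fold higher in T. No test was made of these values. Over all tested genes, 11.2% passed both the FDR and the fold limit in Cb (8.54% higher and 2.66% lower in T). In F/M 3.49% did (2.63% higher and 0.858% lower in T). These shares use the FDR and the member counts do not. Nothing is read from these counts since the members were picked on this contrast. Fev and Slc6a3 in Cb and Fev and Slc6a2 in F/M had too few counts. These 8 of 16 fitted values stayed above 1.5-fold without any single library, in DESeq2, with RLE size factors and in a single fit of all 12 libraries. Without F/M-N library 3, which held 5 of the 10 N counts, the log2 fold change of *Slc6a4* in F/M was 5.81.

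On a scale per length the amount of RNA that separated T from N can be set side by side between genes. In F/M the difference between T and N was 2.93 ± 0.074 (SE) CPM per kb of exon for *Tph2* and 1.37 ± 0.046 for *Slc6a4*, against 0.97 ± 0.18 for *Ddc* and 0.80 ± 0.084 for *Slc18a2*. It was -0.14 ± 0.098 for *Th*, 0.07 ± 0.28 for *Slc6a3*, 0.01 ± 0.033 for *Dbh* and 0.02 ± 0.0033 for *Slc6a2*. In Cb the largest differences per kb were those of *Dbh* (2.73 ± 0.082) and *Slc18a2* (1.88 ± 0.087), and *Maob* came next with a wide error (1.82 ± 0.63). *Slc6a2* followed with 1.22 ± 0.097 CPM per kb, ahead of *Ddc* (0.85 ± 0.13), *Th* (0.81 ± 0.28) and *Tph2* (0.79 ± 0.11), while *Slc6a4* had 0.31 ± 0.042. On this scale *Tph2* and *Slc6a4* had the largest excess in T in F/M, and *Dbh* and *Slc18a2* in Cb.

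**Figure D2:**
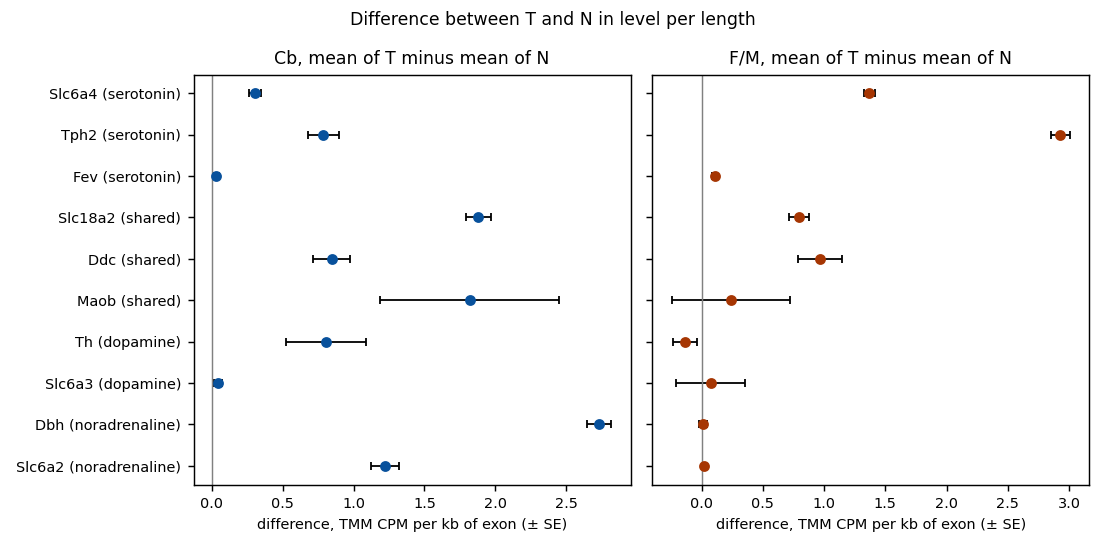
Mean level in T minus mean level in N for each gene, in TMM CPM per kb of exon, in Cb (left) and F/M (right); error bars are SE from 3 against 3 libraries and the grey line is 0. Tph2 (2.93) and Slc6a4 (1.37) have the largest differences in F/M, and Dbh (2.73) and Slc18a2 (1.88) in Cb.

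Ratios inside a library need no scaling between libraries. The summed level per kb of *Slc6a4* and *Tph2* over that of *Th* and *Slc6a3* was 0.0439, 0.049 and 0.0337 in F/M-N and 0.428, 0.461 and 0.448 in F/M-T. In Cb it was 0.114, 0.0899 and 0.0631 in N and 0.278, 0.291 and 0.245 in T. Serotonin genes thus stood higher against *Th* and *Slc6a3* in every T library than in any N library of either area, a pattern the choice of members already contains. In Cb the lower part of the ratio was nearly all *Th*, which also serves noradrenaline synthesis. There *Th* had 4.71 CPM per kb in N and 5.52 in T, and *Slc6a3* 0.022 and 0.068. The Cb ratio therefore does not set serotonin neurons against dopamine neurons. The sum of *Dbh* and *Slc6a2* over that of *Slc6a4* and *Tph2* was 0.756, 0.932 and 1.37 in Cb-N and 2.85, 2.59 and 3.23 in Cb-T, but 0.277, 0.239 and 0.51 in F/M-N and 0.0283, 0.0469 and 0.0387 in F/M-T. The ratio of noradrenaline to serotonin genes was therefore higher in T in Cb and lower in T in F/M, with no overlap in either. *Tph2* over *Slc6a4* per kb was 2.2, 2.48 and 2.54 in F/M-T and 2.45, 4.58 and 2.61 in Cb-T, and from 4.2 to 25.2 in the N libraries, where *Slc6a4* rests on 2 to 9 counts.

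**Figure D3:**
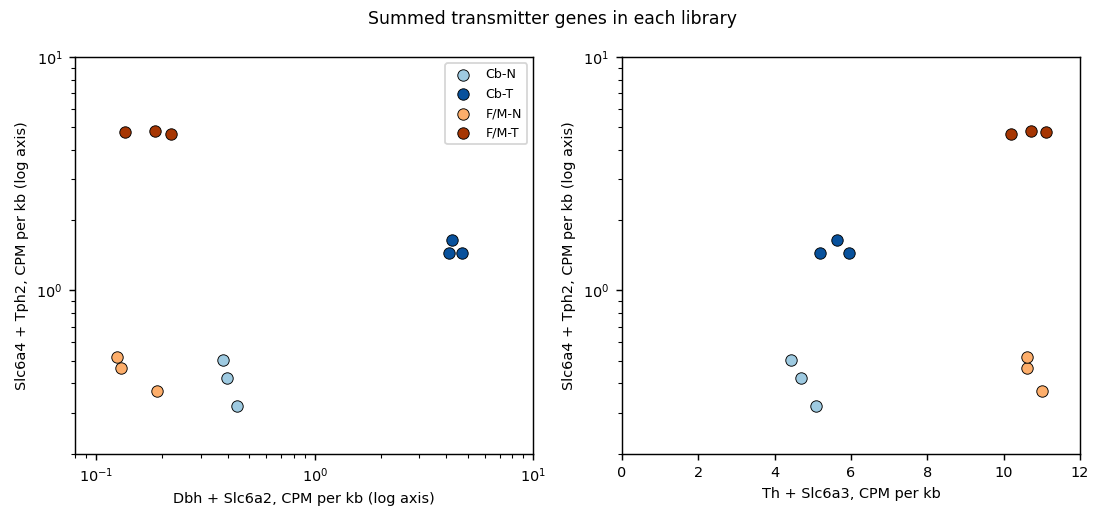
Summed level of Slc6a4 and Tph2 (CPM per kb, log axis) in each library against that of Dbh and Slc6a2 (left, log axis) and of Th and Slc6a3 (right, linear axis from 0); colours are the 4 groups. The 4 groups form 4 separate clusters on the left, and on the right the F/M-T libraries have the serotonin sum of 4.68 to 4.81 while the dopamine sum of all F/M libraries lies between 10.2 and 11.1.

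The spread among the libraries of a group was set against counting error. Over the 32 pairs of member and group with at least 15 counts, the chi-square per degree of freedom among the 3 libraries had a mean of 1.258, where counting error alone gives a mean of 1. Over all genes with enough counts the mean was between 1.62 and 2.61 by group. The highest were those of *Maob* in Cb-T (5.65), *Ddc* in Cb-N (3.53) and *Slc6a3* in F/M-T (3.49).

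Other genes of the 3 systems were taken from lists of receptors, regulators, synthesis and breakdown enzymes, 73 genes that are not members. These lists were drawn up with earlier results known. In Cb, 24 of the 56 tested passed the test (edgeR, FDR below 0.1 and at least 1.5-fold), 22 higher and 2 lower in T, where 11.2% of all tested genes passed, 8.54% higher and 2.66% lower. Of the 22, 11 reached the count minimum in all Cb-T libraries but not in all Cb-N libraries, so the filter admitted them through the group in which they are high, and the count of 22 is a description. For these 11 the adjusted p below is that of the edgeR fit with no filter on counts (28980 genes), in which all 11 passed and 29 of 71 pathway genes did, 27 higher and 2 lower. That fit also gave smaller p-values to genes with many counts (2e-204 in place of 6.5e-29 for *Nr4a2* in Cb by edgeR), so its p-values are not to be set beside those of the filtered fit. The median log2 fold change over the 56 was 0.33, beside 0.01 over all tested genes. In F/M, 3 of 63 passed, all higher in T, against 3.49% of all tested genes that passed there, with a median of 0.05 beside 0.01 over all genes. The difference between the areas passed its own test for 27 of 67 genes, where 7.61% of 17482 tested genes did (6.41% higher and 1.2% lower in Cb than in F/M). With no filter the same 27 genes passed, of 73. The change was higher in Cb for 24 of the 27 and lower for 3, *En2*, *Nr4a2* and *Tfap2b*.

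Among regulators of serotonin neurons, 2 of 7 tested rose in Cb-T, both of which reached the count minimum in all libraries of Cb-T only. *Gata3*, a transcription factor needed for hindbrain serotonin neurons and others, rose by 3.34 ± 0.45 on the log2 scale (adjusted p = 6.5e-13, edgeR with no filter), from 0.107 to 1.11 CPM. *Lmx1b*, which those neurons need to form, rose by 1.99 ± 0.27 (adjusted p = 5e-13, edgeR with no filter), from 0.503 to 1.98 CPM. In F/M 0 of the 7 passed by edgeR, DESeq2 or limma-voom, with 0 at an unadjusted p under 0.05 in edgeR, and the log2 fold changes of *Gata3* and *Lmx1b* were 0.19 (edgeR adjusted p = 0.51) and 0.46 (edgeR adjusted p = 0.27). *Gata2* did not pass in either area (0.39 in Cb and 0.13 in F/M). For both *Gata3* and *Lmx1b* the difference between the areas passed the interaction test (edgeR adjusted p = 1.5e-05 and 0.0054), with the higher change in Cb.

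Of the 14 serotonin receptors, 8 had enough counts in Cb and 6 of them rose in Cb-T, where 8.54% of all tested genes did. Of the 6, 3 met the count minimum in all libraries of Cb-T only. In F/M 12 had enough counts, the 8 of Cb among them. There 0 passed by edgeR, DESeq2 or limma-voom, with 0 at an unadjusted p under 0.05 in edgeR. The autoreceptor gene *Htr1a* had 0.178, 0.229 and 0.371 CPM in Cb-N and 2.49, 3.47 and 2.99 CPM in Cb-T, so that its log2 fold change was 3.52 ± 0.28 (adjusted p = 1.2e-35, edgeR with no filter), whereas it stayed between 20.3 and 22.7 CPM in all F/M libraries. *Htr7*, *Htr4* and *Htr2a* rose by 1.77, 1.62 and 0.93 on the log2 scale (edgeR adjusted p = 1.7e-12, 0.00026 with no filter, and 0.0031). *Htr1d* and *Htr2c* also rose (0.91 and 0.85, edgeR adjusted p = 0.015 with no filter, and 9.2e-19).

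Of the genes listed for dopamine neurons, 4 of 9 tested rose in Cb-T and 1 fell, where 8.54% and 2.66% of all tested genes did. Of the 4, *Slc10a4*, *Chrna6* and *Chrnb3* met the count minimum in all libraries of Cb-T only. In F/M 0 of 11 passed by edgeR, DESeq2 or limma-voom, with 3 at an unadjusted p under 0.05 in edgeR. *Slc10a4*, a vesicular protein of monoamine and cholinergic neurons, rose by 2.84 ± 0.36 (adjusted p = 3.9e-15, edgeR with no filter), and the nicotinic receptor subunit genes *Chrna6* and *Chrnb3* by 1.65 ± 0.33 and 1.55 ± 0.35 (adjusted p = 4.5e-06 and 6.8e-05, edgeR with no filter). *Nr4a2*, a nuclear receptor that dopamine neurons need and that many other neurons also express, fell from 77.3 to 29.1 CPM in Cb (-1.39 ± 0.042, adjusted p = 6.5e-29 in edgeR). In F/M *Nr4a2* was lower by less than 1.5-fold (-0.43 ± 0.040, edgeR adjusted p = 1.6e-07). The dopamine receptor gene *Drd2* had 0.622, 0.918 and 0.743 CPM in Cb-N and 7.05, 7.13 and 6.92 CPM in Cb-T, a rise of 3.22 ± 0.17 (edgeR adjusted p = 4.5e-20). *Drd1* and *Drd5* also rose in Cb (0.92 and 0.87, edgeR adjusted p = 0.036 with no filter, and 0.0095), but *Drd1* met the count minimum through Cb-T only and the call of *Drd1* was lost without Cb-N library 3 or Cb-T library 2 (adjusted p = 0.14 and 0.12) and in DESeq2 (adjusted p = 0.11). In F/M *Drd3* passed, with 0.651, 0.360 and 0.297 CPM in N and 0.745, 0.911 and 0.985 CPM in T (1.04 ± 0.33, edgeR adjusted p = 0.031). It met the count minimum through F/M-T only, and its adjusted p with no filter was 0.02 in edgeR. That call was lost without F/M-N library 2 or 3 or F/M-T library 3 (edgeR adjusted p = 0.1 to 0.12).

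Among genes tied to noradrenaline neurons, the homeobox gene *Phox2a* had 2 counts in Cb-N and 15 in Cb-T, too few for the test. The neuropeptide gene *Gal*, which locus coeruleus neurons carry, met the count minimum in Cb through Cb-T only and rose there by 2.61 ± 0.35 (adjusted p = 1.2e-12, edgeR with no filter), and it rose in F/M by 0.68 ± 0.21 (edgeR adjusted p = 0.025). The call in F/M was lost without F/M-N library 1 or F/M-T library 1 (edgeR adjusted p = 0.14 and 0.18). *Tfap2b* fell in Cb by 0.61 ± 0.041 on the log2 scale (edgeR adjusted p = 9.1e-17). *Pnmt*, which makes adrenaline, had no count in any Cb library. Of 8 adrenergic receptors tested in Cb 1, *Adrb1*, passed (0.61 ± 0.21, edgeR adjusted p = 0.012), against 11.2% of all tested genes, but not in limma-voom or without Cb-N library 1 or Cb-T library 1.

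Of the enzymes and transporters of synthesis and breakdown, 3 of 13 passed in Cb, where 11.2% of all tested genes did, and 1 of 13 in F/M, where 3.49% did. *Maoa*, for breakdown, had log2 fold changes of 0.11 in Cb and 0.17 in F/M, and *Gch1*, for the cofactor of the hydroxylases, had 0.26 and 0.23, and neither passed the limits. *Hdc*, which makes histamine, did not pass either (0.06 in Cb and 0.36 in F/M). *Qdpr* and *Pcbd1*, which recycle that cofactor, rose in Cb by 0.60 ± 0.029 and 0.66 ± 0.14 (edgeR adjusted p = 1.9e-21 and 8.1e-05), and *Slc18a1*, a vesicular monoamine transporter of endocrine cells, by 0.70 ± 0.32 (edgeR adjusted p = 0.06). *Qdpr* dropped just under 1.5-fold without Cb-N library 1 or 2 or Cb-T library 3, and *Slc18a1* lost its call without Cb-N library 1 or Cb-T library 2 and in DESeq2. *Tph1*, the tryptophan hydroxylase of the pineal gland, passed in F/M with 32 counts in N and 63 in T (0.97 ± 0.35, edgeR adjusted p = 0.057, and 0.03 with no filter, since the count minimum was met through F/M-T only). That call was lost without F/M-N library 1 or 2 or F/M-T library 1 or 3 (edgeR adjusted p = 0.14 to 0.25). Of the 3 genes called in F/M in all, 1 was left without F/M-N library 1 or 2 or F/M-T library 1 or 3, and 1 was called by DESeq2. *Slc17a6*, the vesicular glutamate transporter of subcortical and brainstem neurons, rose in Cb from 21.2 to 102.2 CPM (2.28 ± 0.044, edgeR adjusted p = 2.3e-36) and not in F/M (-0.02, edgeR adjusted p = 0.65).

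**Figure D4:**
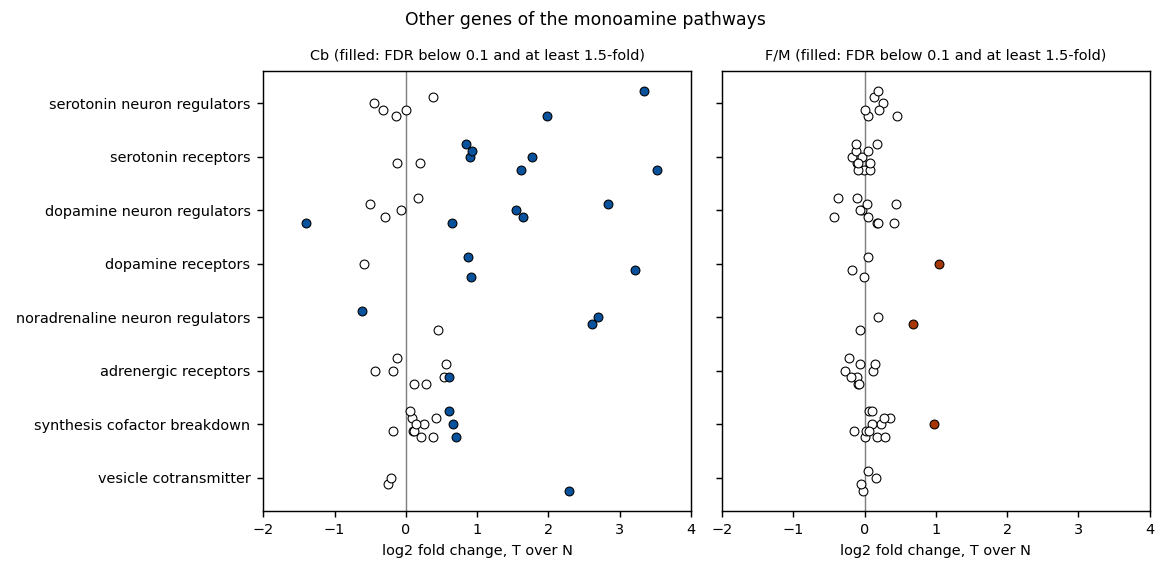
Log2 fold change (T over N) of the tested genes of each list that are not members, in Cb (left) and F/M (right); each point is a gene, filled where it passed at FDR below 0.1 and at least 1.5-fold by edgeR. In Cb 24 of 56 points are filled and reach 3.52, and in F/M 3 of 63.

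Lists of markers of brain regions and other cell types were set beside the members. Of 17 Hox genes, which are active in the hindbrain behind the cerebellum and in the spinal cord, 10 had enough counts in Cb. Each met the count minimum through Cb-T only. These 10 were called higher in Cb-T, where 8.54% of all tested genes were. They also passed with no filter on counts (edgeR adjusted p from 4.3e-47 for *Hoxb5* to 8.4e-10 for *Hoxb2*). The sum over the 17 genes was 0.464 to 0.596 CPM in Cb-N, with 8 of the 17 at 0 in all 3 libraries. It was 14.3 to 15 CPM in Cb-T with none at 0, and at most 0.127 CPM in any F/M library. *Hoxa3* had 0.0888, 0.0459 and 0.0928 CPM in Cb-N and 0.928, 1.05 and 0.954 CPM in Cb-T, and *Hoxa2* had counts in 1 of 3 Cb-N libraries and in all 3 Cb-T libraries. Of 7 genes for motor and glycine neurons of the brainstem, 4 of 5 tested rose in Cb-T, where 8.54% of all tested genes did. Of the 4, 2 met the count minimum through Cb-T only. The largest rise was that of *Chat* (3.81 ± 0.40, adjusted p = 9.8e-20, edgeR with no filter), which makes acetylcholine. *Slc6a5*, the neuronal glycine transporter gene, did not pass there (-0.02 ± 0.042, edgeR adjusted p = 0.7), and their sum was 48.9 to 52.6 CPM in Cb-N and 56.1 to 57.1 CPM in Cb-T with *Mnx1* at 0. In F/M *Slc6a5* was the 1 gene of 6 tested that passed, where 3.49% of all tested genes did. It had 1.74, 0.856 and 0.805 CPM in N and 1.80, 2.28 and 2.19 CPM in T (0.91 ± 0.25, edgeR adjusted p = 0.013). The sum over the list was 23.3 to 26.8 CPM in N and 27.4 to 30.6 CPM in T. No Hox gene had enough counts in F/M to be tested, and 14 of the 17 were at 0 in F/M-T. The part of these genes in the differences of the serotonin and noradrenaline genes was not tested.

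At the other end of F/M, all 6 olfactory bulb genes fell in F/M-T by edgeR, where 0.858% of all tested genes did. By DESeq2 5 fell, and *Tbx21* had no adjusted p. Of the 6, *Omp*, *S100a5* and *Tbx21* met the count minimum in all libraries of F/M-N only, the group in which they are high, and all 3 also passed with no filter on counts (edgeR adjusted p = 9.5e-31 for *S100a5* and 5.8e-05 for *Tbx21*). *Omp*, of olfactory sensory axons, had 3.34, 2.79 and 3.39 CPM in N and 0.263, 0.249 and 0.471 CPM in T (-3.23 ± 0.26, adjusted p = 1.3e-33, edgeR with no filter), and *S100a5* had 2.26, 2.07 and 1.78 CPM in N and 0.0438, 0 and 0.129 CPM in T. The sum of the list was 40.5 to 42 CPM in F/M-N and 14.9 to 16.4 CPM in F/M-T. In Cb the sum was 55.1 to 57.9 CPM in N and 15.4 to 17.3 CPM in T, but most of it was 1 gene, *Eomes*, with 53.3, 52.2 and 54.2 CPM in Cb-N and 10.97, 11.8 and 11.6 CPM in Cb-T (edgeR adjusted p = 4e-32). The other 5 genes summed to 2.84 to 3.71 CPM in Cb-N and 4.47 to 5.72 CPM in Cb-T, and *Cdhr1* rose there (2.47 ± 0.26, adjusted p = 6.9e-20, edgeR with no filter, since Cb-N did not meet the count minimum). The 8 striatal genes, in the main target of dopamine axons, summed to 1040 to 1050 CPM in F/M-N and 991 to 1010 CPM in F/M-T, and 0 of the 8 passed by edgeR, DESeq2 or limma-voom, with 2 at an unadjusted p under 0.05 in edgeR. The 5 cortical genes summed to 311 to 321 CPM in F/M-N and 276 to 280 CPM in F/M-T, and 0 passed by edgeR, DESeq2 or limma-voom, with 4 at an unadjusted p under 0.05. In Cb the 5 cerebellar genes summed to 3760 to 3890 CPM in N and 3390 to 3440 CPM in T. Of these, 0 passed by edgeR, DESeq2 or limma-voom, with 3 at an unadjusted p under 0.05 in edgeR. Levels of *Th*, which is also made in the olfactory bulb, did not separate F/M-N from F/M-T. The part of these lists in the differences of the members was not tested.

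**Figure D5:**
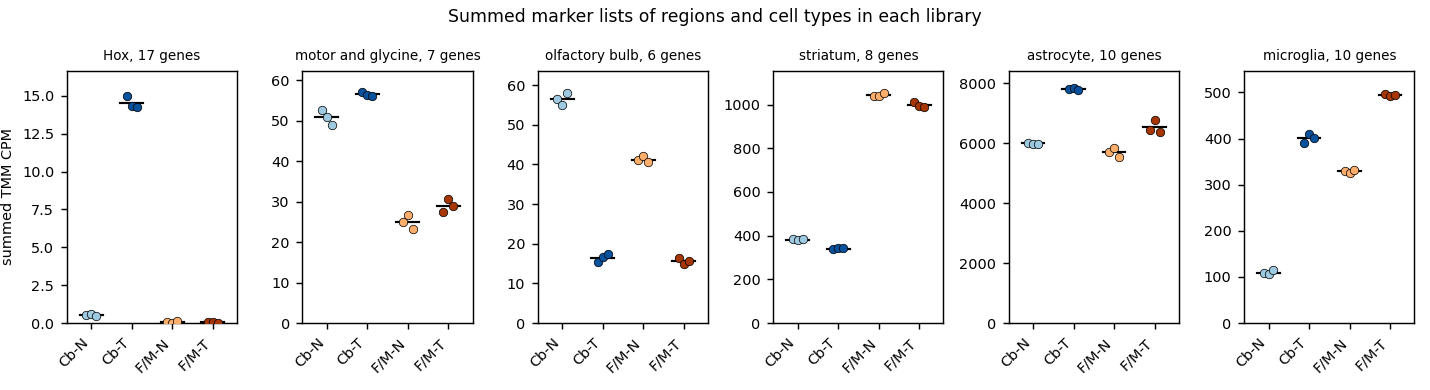
Summed TMM CPM of marker lists (Hox, brainstem motor and glycine neurons, olfactory bulb, striatum, astrocytes and microglia) in each library by group; short lines are group means. The Hox sum is 14.3 to 15 CPM in Cb-T and below 1 CPM elsewhere, and the olfactory bulb sum is 40.5 to 42 CPM in F/M-N and 14.9 to 16.4 CPM in F/M-T, while in Cb it is mostly the single gene Eomes. The motor and glycine sum in Cb is mostly the single gene Slc6a5.

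Most microglia markers and fewer astrocyte markers were called higher in T. Of 10 microglia genes, 8 rose in Cb-T and 6 in F/M-T by edgeR, where 8.54% and 2.63% of all tested genes did. Their sums were 105 to 114 CPM in Cb-N, 390 to 410 CPM in Cb-T, 326 to 332 CPM in F/M-N and 492 to 497 CPM in F/M-T. *Aif1* rose by 1.90 and 1.02 in Cb and F/M on the log2 scale, and *Cx3cr1* by 1.52 in Cb (edgeR adjusted p = 1.3e-11, 8.8e-06 and 1.7e-25). Of 10 astrocyte genes, 2 rose in Cb-T and 1, *Gfap*, in F/M-T, beside the same shares of all tested genes, and 8 and 9 did not pass. These counts are too small to tell the astrocyte list from all genes. The sums were 5970 to 6020, 7780 to 7820, 5520 to 5830 and 6380 to 6770 CPM in the same order of groups. *Gfap* rose by 2.91 ± 0.024 in Cb and 1.76 ± 0.029 in F/M (edgeR adjusted p = 1.4e-50 and 1.2e-19), and *Aqp4* by 0.79 in Cb (edgeR adjusted p = 2.9e-30). The part of glial cells in the level of *Maob* and of the other members was not tested. Mast cells also hold serotonin, and their 4 genes summed to no more than 0.541 CPM in any library, with the highest sum in F/M-N. The 6 pineal genes summed to 2.84 to 3.12 CPM in F/M-N and 3.55 to 3.94 CPM in F/M-T and to no more than 1.29 CPM in Cb.

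The genes whose levels over the 12 libraries were most like those of *Slc6a4* were sought among 15143 genes, as the Pearson r of log2 CPM (prior count 2). They were *Irf7* (0.977), *Oasl2* (0.976), *Ifi44* (0.968), *Gbp3* (0.966) and *Bst2* (0.965). All 5 had their highest mean in F/M-T and the next in Cb-T, as *Slc6a4* did, and *Irf7* had 1.35, 1.80 and 1.48 CPM in F/M-N and 8.19, 6.96 and 7.28 CPM in F/M-T. The 12 libraries fall into 4 groups, so this likeness is one of group levels, and among libraries of a group r was between -0.25 and 0.244. The genes most like *Slc6a3* were *Gucy2g* (0.999), *Kcnmb2* (0.997), *Gramd2*, *Susd5* and *Klhl40* (0.996 each), all higher in both F/M groups. They were picked for their likeness over the same 12 libraries, in which Cb-N library 2 held all 5 Cb-N counts of *Slc6a3*, so their r among libraries of a group (0.862 to 0.98) and their peak in that library among the 3 of Cb-N follow from the choice.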

How the data were processed

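RNA of cerebellum and forebrain/midbrain from 4-month-old male *Tpp1*-/- mice and wild-type siblings was made into stranded poly(A) libraries and sequenced as single-end reads. The authors aligned the reads to GRCm38 (mm10) with STAR (2.5.1b in the submitters' processing notes), counted them per gene with featureCounts (1.26.1 in the same notes) and deposited raw counts, 1 table per library. The annotation release, the strand option and the treatment of multiply aligned reads are not given in the sources used here. Groups were taken from the sample labels, since the names of the files disagree with them.

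Everything after the counts was computed in R 4.3.3 with edgeR 4.0.16. Genes passed filterByExpr (minimum count 10, minimum total 15), libraries were scaled by TMM, and each contrast was fitted with glmQLFit and tested with glmQLFTest, with Benjamini-Hochberg adjustment over all tested genes. A gene was called at FDR below 0.1 and at least 1.5-fold, the limits of the study's methods. The difference between areas was the area-by-genotype term over all 12 libraries. SE of a log2 fold change was its size divided by the root of F. The exact interval of a count ratio is the conditional binomial one at 95%. Lengths and positions came from the GENCODE annotation of GRCm38, promoter windows from RefSeq. The members, gene lists and tests were chosen with earlier results of these data known. The genes named are the members, called genes of each list (the 4 largest changes where more passed), 12 fixed genes, the first 2 of each region list, the 5 most like *Slc6a4* and *Slc6a3*, and *Tpp1*. *Htr1d*, *Htr2c*, *En2*, *Eomes*, *Cdhr1*, *Tbx21* and *Mnx1* were added after their values were seen. Some genes that the rule names are not reported here. Alternatives were DESeq2 1.42.0, limma-voom (limma 3.58.1), RLE factors, other filters (none, or 50 counts on average), a block for the replicate number, 1 fit of all libraries, FDR below 0.05 and leaving out each library. The edgeR, DESeq2 and limma-voom fits of each contrast were tested on simulated data.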

Additional observations from a re-analysis of the deposited data

Results flagged for a closer look

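The named genes below differed between the areas in their T over N response by the area-by-genotype test of edgeR, over all 12 libraries. Each value is the log2 fold change in Cb minus that in F/M. It was 3.17 for *Gata3*, 1.54 for *Lmx1b*, 3.54 for *Htr1a*, 1.87 for *Htr7*, 1.68 for *Htr4* and 1.07 for *Htr2a*. It was 2.68 for *Slc10a4*, 1.62 for *Chrna6*, 1.60 for *Chrnb3*, 3.41 for *Drd2*, 0.94 for *Drd1* and 0.84 for *Drd5*. Among the other pathway genes it was 1.95 for *Gal*, 0.81 for *Adrb1*, 0.84 for *Pcbd1* and 2.33 for *Slc17a6*, and it was negative for *Nr4a2* (-0.94) and *Tfap2b* (-0.78). For region and cell markers it was 3.70 for *Chat*, -0.92 for *Slc6a5*, 3.89 for *Omp* (which had too few counts for the test in Cb alone), 1.17 for *Gfap*, 0.90 for *Aif1* and 1.196 for *Cx3cr1*. The adjusted p ranged from 1.2e-23 for *Slc17a6* to 0.036 for *Drd5*. Calls were lost for *Drd5* without Cb-N library 2 or Cb-T library 3 (adjusted p = 0.14 and 0.16 in edgeR), for *Drd1* without Cb-N library 3 or Cb-T library 2 (0.13 each) and for *Adrb1* without Cb-T library 1 (0.19).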

How the results depend on the processing

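Over 77 alternative counts, 70 were within 1.5 times the value reported. With a mean count of at least 50, fewer genes were tested, and 3 members differed between F/M-N and Cb-N in place of 5, 10 pathway genes passed in Cb in place of 24 and 1 in F/M in place of 3. DESeq2 called 1 pathway gene in F/M, where 3 of the 63 had no adjusted p. Leaving out 1 library gave 4 to 5 members between the control areas, 24 to 28 pathway genes in Cb, 1 to 3 in F/M (1 without F/M-N library 2, F/M-T library 1 or F/M-T library 3), 24 to 28 for the difference between areas, and 8 fitted member values past 1.5-fold throughout. No called direction was reversed. For the single genes followed across the alternatives, 35 alternatives ended a call and 1 made one (*Lmx1b* in F/M without F/M-N library 1, adjusted p = 0.078 in edgeR).

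N and T share replicate numbers, but same-numbered libraries did not deviate together (r from -0.016 to 0.062 over genes). With the replicate block the counts were 5 members, 24 pathway genes in Cb, 3 in F/M, 27 for the difference, and 8 member values past 1.5-fold, as without it. Levels near 3 counts, such as those of *Fev*, *Slc6a3* in Cb, *Slc6a2* in F/M and *Slc6a4* in F/M-N, are limited by depth.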
